A study of Mus musculus with 18 samples.

Results

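The genes described are 10 of the 15730 in the deposited count table. They encode the extracellular antagonist follistatin (Fst), the ligands inhibin beta B (Inhbb) and TGF-beta 1 (Tgfb1), and the receptors Acvr1, Bmpr1a, Tgfbr1, Bmpr2 and Tgfbr2. The last members are the inhibitory SMAD gene Smad7 and the BMP-induced transcription regulator Id1. They were picked by symbol with the fold changes of these comparisons known, so the tests on members describe them and are no independent support. All 10 members were present in all 18 samples, and none was lost to the filter on low counts.

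RNA was sequenced from mouse dorsal root ganglia, the clusters of sensory neuron cell bodies beside the spinal cord, taken at levels L4 to L6, whose axons run in the sciatic nerve. All animals were C57BL/6 mice aged 6-8 weeks, collected 24 hours after surgery, and each sample pooled the ganglia of 2 mice. Every group had 3 samples. Sham_Saline was a sham operation with saline, and SNA_Saline was a sciatic nerve injury with saline. SNA_NAC was the same injury with 30 mM N-acetyl-cysteine (NAC), a thiol antioxidant. Sham_H202, spelled here as in the labels, was a sham operation with 13 mM hydrogen peroxide. DCA was an injury of the dorsal columns of the spinal cord, which carry the central branches of the same neurons. LAM was laminectomy, the removal of vertebral bone that exposes the cord. The design asks how these genes respond to a peripheral and to a central injury of the same neurons, and whether an antioxidant or an oxidant at the nerve moves them.

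The TGF-beta family signals through pairs of type I and type II receptor kinases. TGF-beta and activin ligands lead mainly to phosphorylation of SMAD2 and SMAD3, and BMP ligands to that of SMAD1, SMAD5 and SMAD9, which enter the nucleus with SMAD4. Follistatin binds activins and some BMPs outside the cell and keeps them from their receptors. In sensory neurons, BMP signalling through SMAD1 is known for its part in axon growth.

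Total counts per sample ran from 6472476 to 42435331. The 10 sensory neuron markers checked were all in the table, and their summed level ran from 12168 to 18998 CPM, the unit of a gene's reads relative to the TMM-adjusted library size. The tissue label thus had its markers. The slope of log2 CPM on the GC share of the transcripts, per SD of GC share, ran from -0.22 to 0.43 over the samples. The summed level of 7 skeletal muscle markers ran from 7.06 to 1235 CPM over the Sham_Saline samples alone.

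Sequence is shown for the pair of TGF-beta receptors among the members and for Mstn and Tgif1, which belong to the wider pathway list and rose after sciatic injury. Each is the run of 250 bases just before a RefSeq start site that overlapped no annotated exon (RefSeq, GRCm38.p6), 5′ to 3′ on the gene's strand. The windows are chr4:47352972-47353221 on the plus strand for Tgfbr1, chr9:116175364-116175613 on the minus strand for Tgfbr2, chr1:53061390-53061639 on the plus strand for Mstn and chr17:70851735-70851984 on the minus strand for Tgif1.
Tgfbr1: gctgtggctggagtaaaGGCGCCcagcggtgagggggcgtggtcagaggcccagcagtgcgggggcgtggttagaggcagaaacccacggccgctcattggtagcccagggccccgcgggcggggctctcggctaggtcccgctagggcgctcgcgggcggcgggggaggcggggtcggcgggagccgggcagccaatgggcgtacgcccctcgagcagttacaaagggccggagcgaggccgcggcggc
Tgfbr2: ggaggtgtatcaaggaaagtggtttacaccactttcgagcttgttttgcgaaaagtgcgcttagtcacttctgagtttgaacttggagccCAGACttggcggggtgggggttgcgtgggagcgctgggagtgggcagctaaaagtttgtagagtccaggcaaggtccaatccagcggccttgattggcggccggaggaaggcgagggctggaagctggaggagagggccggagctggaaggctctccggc
Mstn: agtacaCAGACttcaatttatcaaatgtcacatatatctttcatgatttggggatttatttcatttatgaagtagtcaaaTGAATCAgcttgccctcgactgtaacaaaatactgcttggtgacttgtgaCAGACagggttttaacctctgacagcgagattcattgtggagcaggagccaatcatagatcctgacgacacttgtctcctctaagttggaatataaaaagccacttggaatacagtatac
Tgif1: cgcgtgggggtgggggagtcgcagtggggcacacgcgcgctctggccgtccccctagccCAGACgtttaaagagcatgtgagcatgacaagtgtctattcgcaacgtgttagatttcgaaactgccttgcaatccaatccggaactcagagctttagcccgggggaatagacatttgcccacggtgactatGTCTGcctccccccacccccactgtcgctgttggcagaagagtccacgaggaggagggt
Capitals mark matches, on either strand, to CAGAC (a SMAD box), GTCTAGAC (the palindromic SMAD element), GGCGCC (a GC-rich SMAD site), TGANTCA (an AP-1 site) or TGACGTCA (a cyclic AMP response element). All but the SMAD box equal their own reverse complements, and none of the patterns lies inside another. The Tgfbr1 window held 1 GGCGCC, starting at -233 from the start site. The Tgfbr2 window held 1 CAGAC, at -160. Mstn's window held CAGAC at -244 and -120 and TGAATCA at -170, and Tgif1's held CAGAC at -191 and its reverse complement GTCTG at -59. Of 32851 windows of the same length over all genes, 42.2% held CAGAC, 9.59% GGCGCC, 6.75% TGANTCA, 1.55% TGACGTCA and 0.167% GTCTAGAC. The windows shown are among those that held a match. Windows of Tgfb1, Inhbb and Acvr1c were searched too and held 0 matches, and a window before a second Tgfbr1 start site held 1 CAGAC, at -203. A match is a description of letters and does not show binding.

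Levels between genes are compared per transcript length, in the deposited FPKM. Bmpr1a had the highest median over the 18 samples, 15.9 FPKM, followed by Tgfbr2 at 9.29. Tgfbr1 (4.81), Id1 (4.63), Acvr1 (4.59), Fst (4.19) and Bmpr2 (4.09) had medians close to one another. The ligands were lower, Inhbb at 1.73 FPKM and Tgfb1 at 0.953, and Smad7 was lowest at 0.664.

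After sciatic nerve injury, Fst and Acvr1 rose and no member fell past the threshold. Fst was 3.28-fold and Acvr1 1.72-fold the Sham_Saline level, and after the same injury with NAC they were 3.06-fold and 1.81-fold. In such bulk samples, more cells of a type and more RNA per cell cannot be told apart. These 2 of 10 members were called (edgeR quasi-likelihood test, adjusted p under 0.05 over all genes), and 2.73% of all genes were called in that comparison, 2.16% higher and 0.572% lower. The groups did not overlap for 3 members, Fst, Acvr1 and Smad7, where 19.1% of all genes did not overlap. With NAC, 4 of 10 members were called against Sham_Saline, Fst and Acvr1 higher and Smad7 and Id1 lower, against 3.32% of all genes (2.47% higher and 0.846% lower). In that comparison 5 members did not overlap, the fifth being Bmpr1a, against 21.2% of all genes. Both comparisons share the 3 Sham_Saline samples, so their values are not independent of each other. Leaving out Sham_Saline replicate 1 raised the share of all genes called to 16.2% in SNA_Saline, 37.3% with NAC and 29.2% in the difference between the injuries, and the values given without that sample are to be read against these shares.

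**Figure D1:**
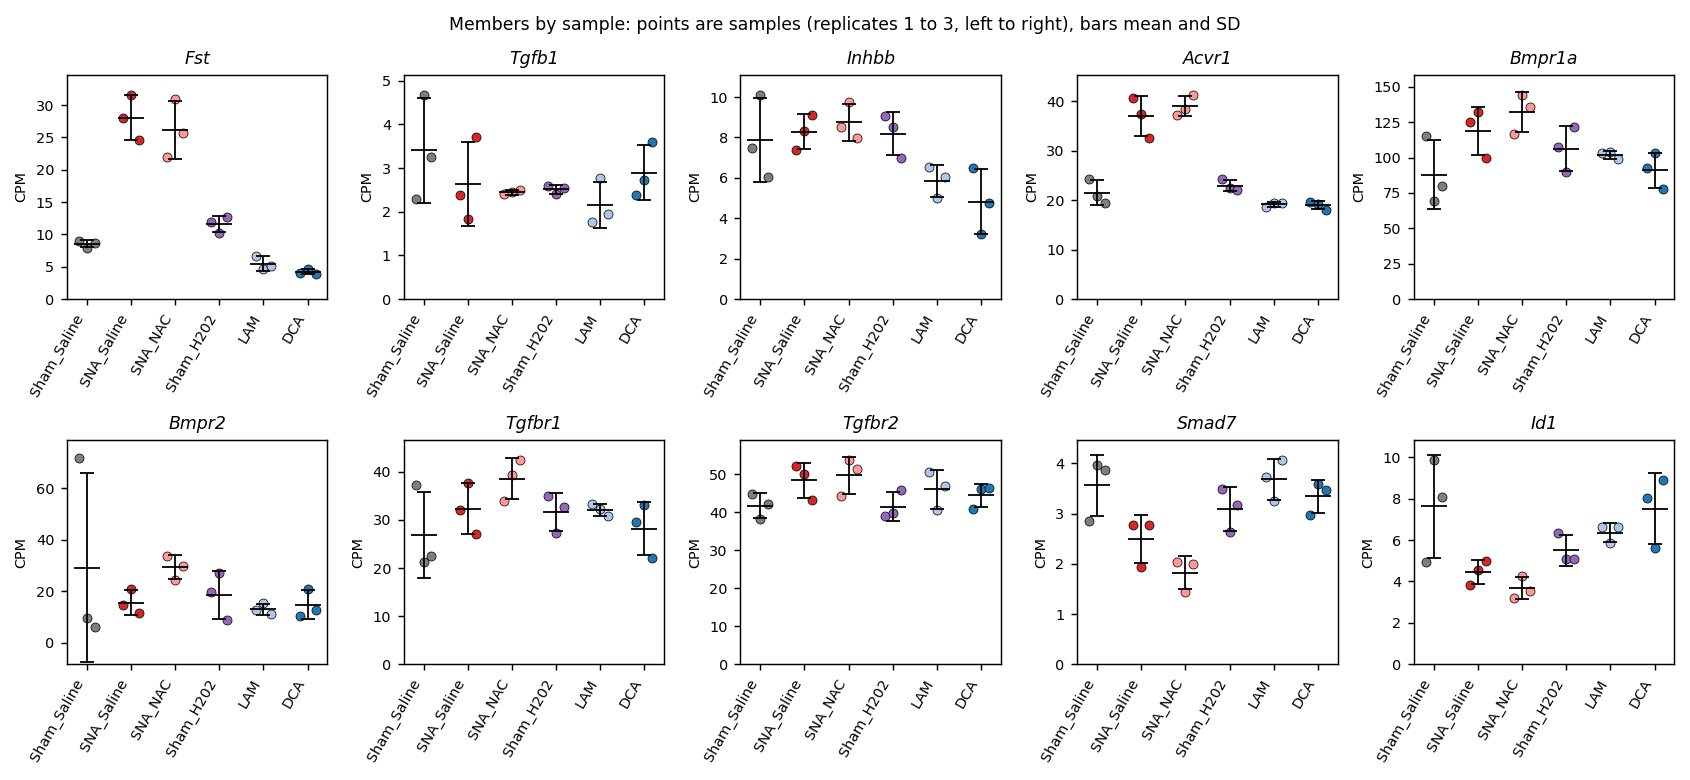
CPM of the 10 members in the 18 samples, by group; points are samples (replicates 1 to 3 from left to right), and bars give the mean and SD of 3. Fst and Acvr1 sit higher in both nerve injury groups than in the 4 other groups, and 1 Sham_Saline sample stands far above all others for Bmpr2.

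Fst (ENSMUSG00000021765, chr13:114452290-114458951, minus strand, GRCm38) encodes follistatin. Its level in the Sham_Saline samples was 8.96, 7.96 and 8.69 CPM, and in the SNA_Saline samples 28.0, 31.6 and 24.6 CPM. The SNA_NAC samples held 22, 30.9 and 25.7 CPM. All 6 injured samples lay above every other sample of the study. The difference between SNA_Saline and Sham_Saline was 1.72 on the log2 scale (SE 0.16, edgeR adjusted p 9.71e-06). Within lanes 1, 2 and 3, each of which carried 1 sample of every group, the log2 ratio was 1.63, 1.97 and 1.49. Between SNA_NAC and Sham_Saline the difference was 1.61 (SE 0.16, edgeR adjusted p 1.61e-05). These 2 calls held in each of the 28 alternative settings, with log2 values from 1.45 to 1.80 and from 1.34 to 1.73.

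The remaining groups spread Fst over a lower range with an order of its own. The Sham_H202 samples held 11.9, 10.3 and 12.7 CPM, each above the highest Sham_Saline sample. The LAM samples held 6.73, 4.61 and 5.07 CPM, and the DCA samples 4.07, 4.70 and 3.91 CPM. Ordered by mean, Fst was 28.1 ± 3.48 CPM in SNA_Saline (SD, n = 3), 26.2 ± 4.50 in SNA_NAC, 11.6 ± 1.24 in Sham_H202, 8.54 ± 0.517 in Sham_Saline, 5.47 ± 1.12 in LAM and 4.23 ± 0.416 in DCA. The injured pair of groups overlapped, as did LAM and DCA, and every other neighbouring pair in this order did not. None of the 3 differences tested among the latter 4 groups passed the threshold.

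Acvr1 (ENSMUSG00000026836, chr2:58388644-58567157, minus strand) encodes a type I receptor, also called ALK2, that carries BMP signals. Sham_Saline samples had 24.3, 20.8 and 19.3 CPM, SNA_Saline samples 40.7, 37.4 and 32.6 CPM, and SNA_NAC samples 37.3, 38.4 and 41.3 CPM. The injured samples were again the 6 highest of the 18, and the lowest of them lay above the highest sham sample. Acvr1 was 0.78 higher on the log2 scale in SNA_Saline than in Sham_Saline (SE 0.11, edgeR adjusted p 0.000542) and 0.86 higher in SNA_NAC (SE 0.11, edgeR adjusted p 0.000206). The ratios within lanes for the former were 0.74, 0.85 and 0.75. Sham_H202 samples had 24.2, 22.5 and 22.1 CPM, LAM samples 18.6, 19.5 and 19.4 CPM, and DCA samples 19.7, 19.2 and 18 CPM. By mean the order was SNA_NAC, SNA_Saline, Sham_H202, Sham_Saline, LAM and DCA, and only the step from SNA_Saline to Sham_H202 was free of overlap. Acvr1 was also among the steadier genes, with a within-group SD of 0.108 on the log2 scale, at the 8.95th percentile of 12991 genes. With only the groups of each comparison in the fit, its calls were lost (edgeR adjusted p 0.157 and 0.0654), while the log2 values stayed at 0.77 and 0.85.

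Smad7 (ENSMUSG00000025880, chr18:75367529-75395935, plus strand) encodes an inhibitory SMAD that blocks type I receptors and is itself induced by the pathway. It was scarce: Sham_Saline samples had 2.86, 3.96 and 3.87 CPM, SNA_Saline samples 2.77, 1.95 and 2.78 CPM, and SNA_NAC samples 2.04, 1.44 and 1.99 CPM. Both injured groups lay below every Sham_Saline sample. The log2 difference was -0.49 (SE 0.21, edgeR adjusted p 0.188) for SNA_Saline and -0.94 (SE 0.20, edgeR adjusted p 0.0143) for SNA_NAC, so only the fall in the latter passed the threshold. The difference between these 2 injured groups was -0.45 (SE 0.21, edgeR adjusted p 1). The SNA_NAC call was lost in 7 of the 28 alternatives, among them leaving out Sham_Saline replicate 2 (edgeR adjusted p 0.0862), Sham_Saline replicate 3 (0.0542) or SNA_NAC replicate 2 (0.0858), and offsets for GC share and length, under which it was -0.60 (0.0794). In SNA_NAC 2 of 6 neutrophil markers were called lower as well, where 0.846% of all genes were. Their summed level was 207 to 271 CPM against 307 to 524 CPM in Sham_Saline. By fold change, all 7 skeletal muscle markers and all 5 red blood cell markers were lower too, with 0 called. The part of these cells in the results for Smad7 and Id1 was not tested. Smad7's mean level in the uninjured and centrally injured groups ran from 3.10 CPM in Sham_H202 to 3.68 CPM in LAM, with all neighbours overlapping.

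Id1 (ENSMUSG00000042745, chr2:152736251-152737410, plus strand) encodes a helix-loop-helix protein without a DNA-binding region, and its gene is a direct target of BMP-activated SMADs. The Sham_Saline samples were wide apart at 4.96, 9.85 and 8.08 CPM. SNA_Saline samples had 3.83, 4.54 and 4.99 CPM and SNA_NAC samples 3.22, 4.25 and 3.53 CPM. The SNA_NAC samples lay below every Sham_Saline sample, and the SNA_Saline samples overlapped with the lowest of them. Id1 fell by 1.07 on the log2 scale in SNA_NAC (SE 0.23, edgeR adjusted p 0.0145). In SNA_Saline the value was -0.78 (SE 0.23, edgeR adjusted p 0.0872), which the DESeq2 Wald test called (adjusted p 0.043) and which edgeR called without Sham_Saline replicate 1 (-1.02, adjusted p 0.00845). The SNA_NAC call was lost in 6 of the 28 alternatives. Among them were leaving out Sham_Saline replicate 2 (edgeR adjusted p 0.104), SNA_NAC replicate 1 (0.0708) or SNA_NAC replicate 3 (0.0763), and both fits on log2 FPKM (limma adjusted p 0.0841 and 0.078). The Sham_H202 samples, at 6.34, 5.07 and 5.09 CPM, lay above every SNA_Saline and SNA_NAC sample, the highest of which had 4.99 CPM. LAM samples had 6.62, 5.85 and 6.61 CPM and DCA samples 8.03, 5.64 and 8.91 CPM. By mean the order ran from Sham_Saline (7.63 CPM) over DCA, LAM, Sham_H202 and SNA_Saline to SNA_NAC (3.67 CPM), and only Sham_H202 and SNA_Saline among these neighbours did not overlap. Pearson's r of the log2 CPM of Id1 with the GC slope of the samples was 0.573. Sham_Saline replicate 2, DCA replicate 3 and Sham_Saline replicate 3 had the highest slopes and also the highest levels of Id1. The cause of this pattern was not tested.

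Neither ligand gene passed the threshold in any comparison with all samples in the fit. Inhbb (ENSMUSG00000037035, chr1:119415465-119422248, minus strand) encodes the beta B chain that forms activin B. It had 7.48, 10.1 and 6.04 CPM in Sham_Saline, 7.39, 8.32 and 9.12 CPM in SNA_Saline, and 8.51, 9.76 and 7.96 CPM in SNA_NAC. The groups overlapped, and the log2 difference of SNA_Saline was 0.06 (SE 0.22). Over the 28 alternative settings that value ran from -0.09 to 0.59. Tgfb1 (ENSMUSG00000002603, chr7:25687002-25705077, plus strand) encodes TGF-beta 1. Its samples had 2.29, 4.67 and 3.26 CPM in Sham_Saline, 2.38, 1.84 and 3.71 CPM in SNA_Saline, and 2.39, 2.44 and 2.49 CPM in SNA_NAC. The log2 values against Sham_Saline were -0.35 (SE 0.28, edgeR adjusted p 0.436) and -0.49 (SE 0.27, edgeR adjusted p 0.233), and these groups overlapped too. Without Sham_Saline replicate 1 the SNA_NAC value was -0.72 (edgeR adjusted p 0.04). Over the 28 alternative settings the SNA_NAC value ran from -0.72 to -0.17. Pearson's r of the log2 CPM of Tgfb1 with the GC slope of the samples was 0.814, and its part in these values was not tested. By mean, Inhbb ran from 4.83 CPM in DCA to 8.74 CPM in SNA_NAC and Tgfb1 from 2.16 CPM in LAM to 3.41 CPM in Sham_Saline, and every neighbouring pair in both orders overlapped.

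Among the receptors other than Acvr1, none was called by edgeR without GC and length offsets and with all samples in the fit. Bmpr1a (ENSMUSG00000021796, chr14:34410734-34503341, minus strand) is a type I BMP receptor. Its samples had 115, 69.1 and 79.7 CPM in Sham_Saline, 125, 132 and 99.8 CPM in SNA_Saline, and 117, 144 and 135 CPM in SNA_NAC. The log2 differences were 0.43 (SE 0.17, edgeR adjusted p 0.172) and 0.59 (SE 0.17, edgeR adjusted p 0.0699), and DESeq2 called the latter (adjusted p 0.0298). Only the SNA_NAC samples lay wholly above Sham_Saline, by a narrow margin. Tgfbr1 (ENSMUSG00000007613, chr4:47353222-47414931, plus strand), the type I receptor for TGF-beta, had 37.2, 21.2 and 22.4 CPM in Sham_Saline, 32.0, 37.7 and 27.2 CPM in SNA_Saline, and 33.9, 39.4 and 42.4 CPM in SNA_NAC. Its log2 differences were 0.26 (SE 0.20, edgeR adjusted p 0.428) and 0.52 (SE 0.20, edgeR adjusted p 0.131). The 3 groups overlapped.

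For both genes, Sham_Saline replicate 1 was the high sample of its group. Without it the log2 values in SNA_Saline were 0.68 for Bmpr1a (edgeR adjusted p 0.0168) and 0.56 for Tgfbr1 (0.0424), and in SNA_NAC 0.83 (0.00242) and 0.82 (0.00457). The low samples were those with the highest GC slopes. Over all 18 samples, Sham_Saline replicate 2, DCA replicate 3 and Sham_Saline replicate 3 had the highest slopes (0.43, 0.25 and 0.16), and the same samples had the lowest levels of Bmpr1a (69.1, 77.9 and 79.7 CPM) and of Tgfbr1 (21.2, 22.1 and 22.4 CPM). Their longest transcripts have a GC share of 41.3% and 41.0%, in the lowest 10.2% and 9.15% of genes. With offsets for GC share and length, the SNA_Saline value was 0.20 for Bmpr1a (edgeR adjusted p 0.0326) and 0.03 for Tgfbr1 (0.876), and the SNA_NAC values were 0.23 (0.013) and 0.17 (0.219). Pearson's r of log2 CPM with the slope was -0.845 for Bmpr1a and -0.843 for Tgfbr1. It was -0.258 for Bmpr2, whose GC share is 41.0%, and -0.646 for Tgfbr2, whose share is 49.6%. Among the other members it was 0.814 for Tgfb1, 0.573 for Id1, 0.365 for Smad7, 0.12 for Inhbb, -0.288 for Fst and -0.298 for Acvr1. The cause of these patterns was not tested.

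**Figure D2:**
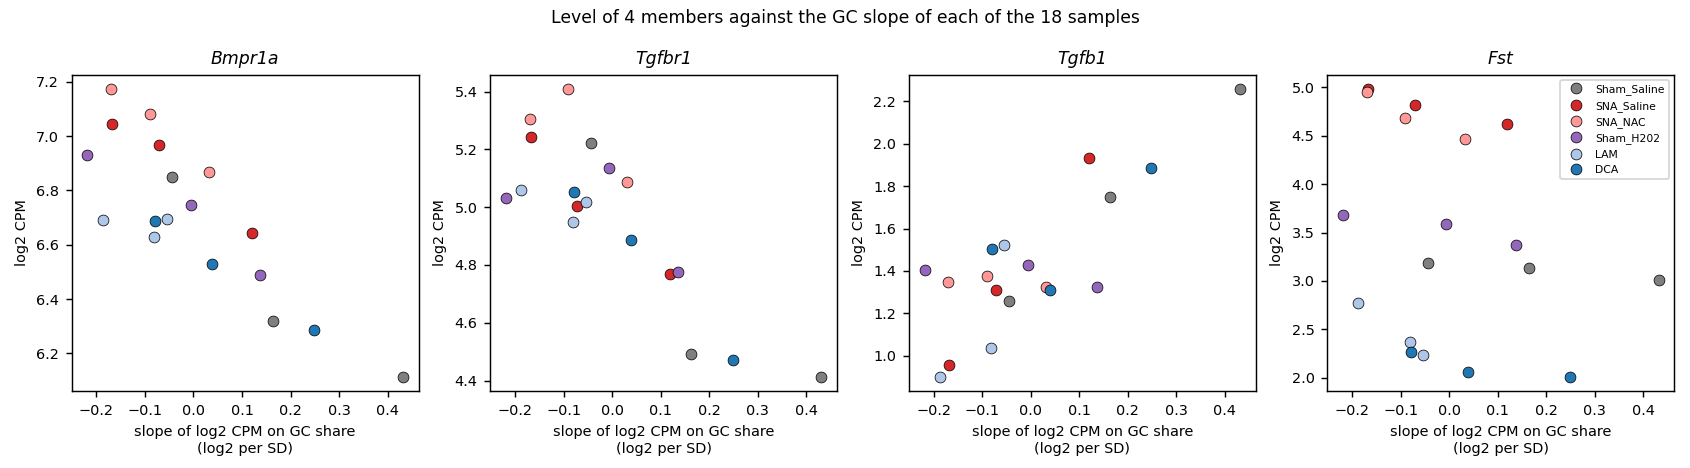
Log2 CPM of 4 members (y axis) against each sample's slope of log2 CPM on transcript GC share (x axis, log2 per SD of GC share); colours are the 6 groups and each point is 1 of 18 samples. Bmpr1a and Tgfbr1 are lowest in the 3 samples with the highest slopes, up to 0.43.

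Tgfbr2 (ENSMUSG00000032440, chr9:116084293-116175360, minus strand), the type II receptor for TGF-beta, had the narrowest range of the 10. Over all 18 samples it ran from 38.2 to 53.7 CPM, a ratio of 1.41, while that ratio was 8.07 for Fst and 11.5 for Bmpr2. Its log2 difference was 0.21 (SE 0.12, edgeR adjusted p 0.28) in SNA_Saline and 0.25 (SE 0.12, edgeR adjusted p 0.176) in SNA_NAC. The groups overlapped in each neighbouring pair of its order.

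Bmpr2 (ENSMUSG00000067336, chr1:59763400-59879014, plus strand), the type II BMP receptor, was the member on which replicates disagreed most. Sham_Saline had 71.5, 9.64 and 6.24 CPM, so replicate 1 stood 7.42 times above the next sample. In SNA_Saline the samples had 14.5, 20.9 and 11.4 CPM and in SNA_NAC 33.8, 24.5 and 29.9 CPM. Its within-group SD was 0.89 on the log2 scale, the 99.6th percentile of 12991 genes whose median was 0.21. Among those genes, 17 (0.131%) had Sham_Saline replicate 1 at least 5 times both other samples of the group. The log2 value of SNA_Saline against Sham_Saline was -0.92 (SE 0.64, edgeR adjusted p 0.372), and 0.94 without that replicate. That of SNA_NAC was 0.01 (SE 0.61, edgeR adjusted p 0.994), and 1.87 without it (edgeR adjusted p 0.00457). The direction of Bmpr2 against Sham_Saline thus rested on 1 sample. Sham_H202 had 19.7, 27.1 and 8.74 CPM, LAM 12.5, 15.2 and 11.0 CPM, and DCA 10.5, 21 and 12.7 CPM.

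**Figure D3:**
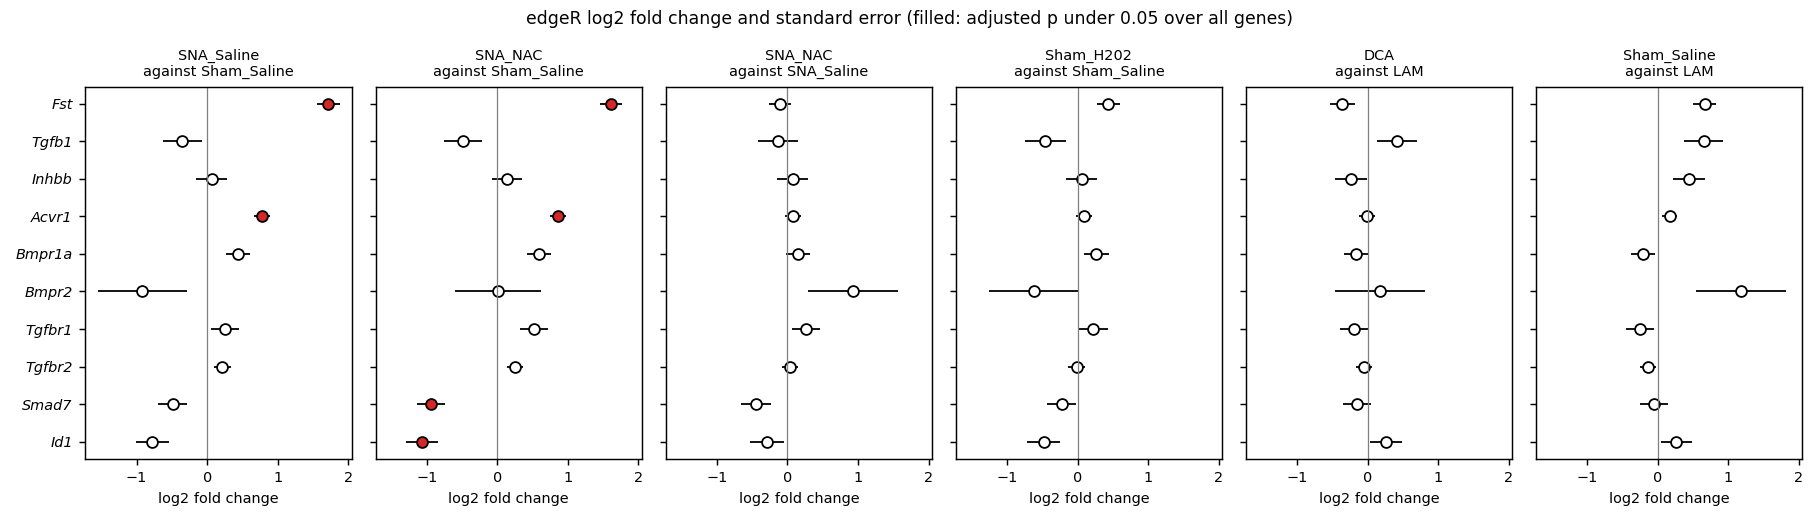
Log2 fold change of each member in the 6 comparisons between groups (x axis), with its standard error as a bar; filled points passed an adjusted p under 0.05 over all genes. Fst and Acvr1 are filled in both comparisons of sciatic nerve injury with sham, Smad7 and Id1 in that with NAC, and no point is filled in the remaining 4 panels.

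No member passed the threshold between sciatic nerve injury with and without NAC. Of the 10 members 0 were called between SNA_NAC and SNA_Saline by edgeR, as were 0% of all genes, and DESeq2 also called 0 members. On log2 FPKM, limma called 8 of all genes and 0 members. At an unadjusted p under 0.05 there was 1 member, Smad7 (p 0.0474), against 2% of all genes. The log2 difference of Fst was -0.10, with a 95% interval from -0.43 to 0.22, and that of Acvr1 was 0.08, with an interval from -0.15 to 0.31. For Id1 it was -0.29, from -0.79 to 0.21. Bmpr2 was the 1 member whose groups did not overlap (14.9% of all genes), at 0.93 (SE 0.63, edgeR adjusted p 1).

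Hydrogen peroxide in sham animals gave no member past the threshold either. By edgeR 0 of 10 were called, as were 0% of all genes, and DESeq2 called 4 of all genes and 0 members. A single member, Fst, had an unadjusted p under 0.05, against 9.15% of all genes. It was 0.43 higher than in Sham_Saline (SE 0.16, unadjusted p 0.0178, edgeR adjusted p 0.449), and it was the 1 member whose groups did not overlap, against 5.43% of all genes. Acvr1 had a log2 difference of 0.09, with a 95% interval from -0.15 to 0.33. Id1 was at -0.48, from -0.97 to 0.01, and the other members lay between -0.62 for Bmpr2 and 0.27 for Bmpr1a.

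After dorsal column injury 0 members were called against LAM by edgeR or DESeq2, and edgeR called 0% of all genes, where DESeq2 called 2 genes. At an unadjusted p under 0.05 there were also 0 members, against 5.04% of all genes, and 0 members had groups without overlap, against 21.7%. The log2 value of Fst was -0.36 (95% interval -0.73 to 0.01), that of Acvr1 -0.02 (-0.25 to 0.22), that of Smad7 -0.15 (-0.56 to 0.26) and that of Id1 0.26 (-0.22 to 0.73). The other members lay between -0.24 for Inhbb and 0.42 for Tgfb1, both with intervals that include 0. Inhbb had 6.52, 4.99 and 6.04 CPM in LAM and 6.48, 3.24 and 4.75 CPM in DCA.

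The change after sciatic injury was therefore set against that after dorsal column injury in a test of the difference itself. Here 2 of 10 members were called, Fst and Acvr1, both with the larger change after sciatic injury, where 1.61% of all genes were called, 1.23% higher and 0.388% lower. For Fst the difference was 2.08 on the log2 scale (SE 0.24, edgeR adjusted p 0.000283), and within lanes 2.34, 1.95 and 1.86. For Acvr1 it was 0.80 (SE 0.16, edgeR adjusted p 0.0222), and within lanes 0.66, 0.86 and 0.86. The Fst call held in the 28 alternatives, with log2 values from 1.65 to 2.19. The Acvr1 call was lost in 6 of them, among them leaving out Sham_Saline replicate 2 (edgeR adjusted p 0.0538), SNA_Saline replicate 1 (0.09), LAM replicate 2 (0.0522), LAM replicate 3 (0.0643) or DCA replicate 3 (0.074). Id1 had a difference of -1.04 (SE 0.32, edgeR adjusted p 0.0849), which DESeq2 called (adjusted p 0.0416), as did edgeR without Sham_Saline replicate 1 (adjusted p 0.0164).

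The surgical controls, Sham_Saline and LAM, were compared as background. Of the members 0 were called by edgeR, against 0.0699% of all genes, and 2 had an unadjusted p under 0.05, Fst and Tgfb1, against 30.3% of all genes. Fst was 0.66 higher in Sham_Saline (SE 0.17, edgeR adjusted p 0.104) and did not overlap, which held for 30.6% of all genes. DESeq2 called it (adjusted p 0.0305), as did edgeR with offsets for GC share and length (0.98, adjusted p 0.000536). Folds after sciatic injury are relative to the Sham_Saline level. In this comparison DESeq2 called 1083 of all genes and edgeR 11.

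A wider list of 96 genes of the family gave the setting, chosen by role (ligands, receptors, antagonists, SMADs and regulators, targets) with earlier results known. Of these 77 were in the count table, 67 of them not members. The other 19 were low in FPKM in every sample, the highest single value being 0.279 for Acvr2b, and Inhba, which encodes the beta A chain of activin A, reached at most 0.242 FPKM. After sciatic injury 5 of the 67 were called, 4 higher and 1 lower (7.46%, beside 2.73% of all genes). With NAC 7 were called, 5 higher and 2 lower (10.4%, beside 3.32%). Among the 77, the median log2 value in SNA_Saline was -0.02, and over all genes it was -0.03. These calls spread over the roles: 1 of 15 further ligands, 0 of 12 receptors, 1 of 18 antagonists, 2 of 14 SMADs and regulators and 1 of 8 targets after sciatic injury. Leaving out 1 sample, the count after sciatic injury ran from 1 without SNA_Saline replicate 1 to 16 without Sham_Saline replicate 1, where 16.2% of all genes were called. With NAC it ran from 3 without SNA_NAC replicate 3 to 26 without Sham_Saline replicate 1, where 37.3% of all genes were called.

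Smad1, the gene of a BMP-activated SMAD, rose in all samples with sciatic nerve injury. Its mean was 42.3 CPM in DCA, 45.2 CPM in LAM and 45.9 CPM in Sham_H202. Smad1 had 38.7, 38.5 and 41.9 CPM in Sham_Saline, 74.7, 74.7 and 69.0 CPM in SNA_Saline and 65.4, 75.6 and 67.6 CPM in SNA_NAC. Neither injured group overlapped with Sham_Saline. Its log2 differences were 0.87 (SE 0.10, edgeR adjusted p 6.49e-05) and 0.81 (SE 0.10, edgeR adjusted p 0.000124).

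Mstn, the ligand myostatin, was scarce and rose from 0.638 ± 0.141 CPM (SD, n = 3) in Sham_Saline to 1.94 ± 0.321 CPM in SNA_Saline, a log2 difference of 1.58 (SE 0.31, edgeR adjusted p 0.00847). This call was lost in 3 of the 27 alternatives that gave it a value, among them leaving out SNA_Saline replicate 1 (edgeR adjusted p 0.0728). In SNA_NAC, Mstn was at 2.58 ± 0.757 CPM and was called as well (edgeR adjusted p 0.000797). Mstn is best known as a muscle gene. The summed level of 7 muscle markers was 94.8, 1235 and 7.06 CPM in the Sham_Saline samples and 113, 25.2 and 269.5 CPM in SNA_Saline. By fold change 0 of the 7 markers were higher in SNA_Saline, and the high Sham_Saline level lay in replicate 2 alone. The part of muscle tissue in the Mstn result was not tested. Klf10, an early TGF-beta target, rose from 21.4 ± 2.18 to 31.4 ± 1.66 CPM (0.56, SE 0.12, edgeR adjusted p 0.0192). Tgif1, a SMAD corepressor, rose from 3.84 ± 0.508 to 6.39 ± 1.55 CPM (0.75, SE 0.17, edgeR adjusted p 0.0264), and with a replicate block its adjusted p was 0.0544.

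The list genes that fell were Nog and Bambi. Nog encodes noggin, a BMP antagonist, and its samples had 5.62, 5.26 and 6.85 CPM in Sham_Saline and 3.10, 3.35 and 2.35 CPM in SNA_Saline. It fell by 1.01 on the log2 scale (SE 0.25, edgeR adjusted p 0.0386), and with a replicate block the adjusted p was 0.0642. In SNA_NAC it fell by 1.18 (SE 0.24, edgeR adjusted p 0.0112). Bambi, a decoy receptor without a kinase domain, had 11.9, 15.8 and 18.8 CPM in Sham_Saline and 7.75, 8.45 and 8.42 CPM in SNA_NAC, a fall of 0.92 (SE 0.18, edgeR adjusted p 0.00777). In SNA_Saline it was at -0.66 (edgeR adjusted p 0.06). Acvr1c, a type I receptor also called ALK7, was called in SNA_NAC, at 1.39 ± 0.333 against 0.599 ± 0.167 CPM (1.15, SE 0.30, edgeR adjusted p 0.048), and this call was lost with a replicate block (0.0691) and in 19 of the 26 alternatives that gave it a value.

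**Figure D4:**
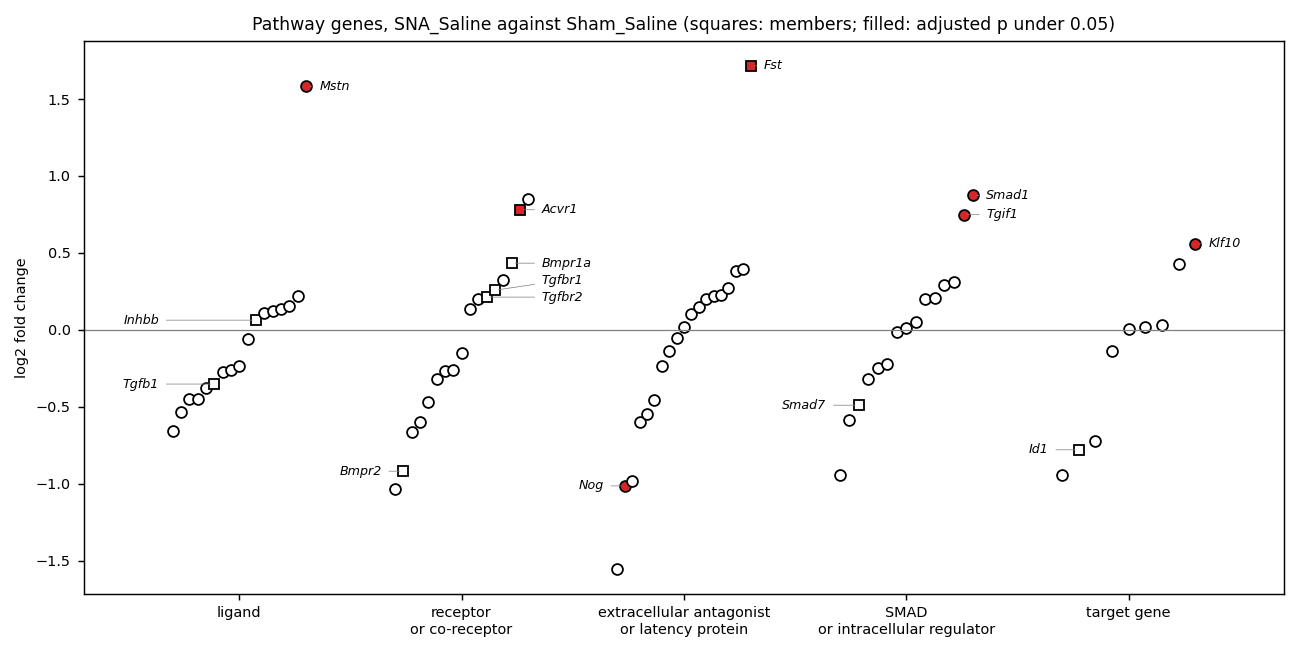
Log2 fold change in SNA_Saline against Sham_Saline (y axis) of the 77 listed family genes in the count table, by role (x axis, sorted within a role); squares are the members, and filled points passed an adjusted p under 0.05. The highest points are Fst at 1.72 and Mstn at 1.58, and Nog is the 1 filled point on the lower side.

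Single samples moved these list calls. Without SNA_Saline replicate 1 the calls after sciatic injury of Nog (edgeR adjusted p 0.141), Tgif1 (0.225) and Klf10 (0.118) were lost, and without Sham_Saline replicate 2 those of Nog (0.0658), Tgif1 (0.139) and Klf10 (0.0977). Klf10 was also lost without SNA_Saline replicate 2 (0.0588), and Nog in 19 of the 28 alternatives. Smad1 kept its call in each of the 28 alternatives in that comparison, and its call in SNA_NAC was lost in 1 of them. In the difference between the injuries, Smad1 (0.97, SE 0.14, edgeR adjusted p 0.00147) and Klf10 (0.74, SE 0.17, edgeR adjusted p 0.043) were called. The Klf10 call was lost in 17 of the 28 alternatives, and with a replicate block its adjusted p was 0.0707.

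Over the 18 samples, the genes whose log2 CPM followed Fst most closely were sought among 12990 genes with a mean count of at least 50. They were Tmem88b (Pearson's r 0.989), Sema6a (0.981), Gpr151 (0.979), Bdnf (0.972) and Epb4.1l4a (0.972). These values are a description: the samples share groups, so they largely repeat the difference between the sciatic injury groups and the others. Tmem88b was at 4.27 ± 0.277 CPM in Sham_Saline (SD, n = 3), 23.9 ± 2.41 in SNA_Saline, 6.94 ± 1.72 in Sham_H202, 1.79 ± 0.519 in LAM and 1.39 ± 0.141 in DCA. Gpr151, an orphan receptor, was at 5.48 ± 0.589 in Sham_Saline, 32.2 ± 3.62 in SNA_Saline, 9.89 ± 1.48 in Sham_H202, 1.90 ± 0.304 in LAM and 2.12 ± 0.448 in DCA. Bdnf, the neurotrophin, ran from 41.9 ± 8.68 CPM in DCA to 124 ± 7.25 CPM in SNA_NAC. As with Fst, the Sham_H202 mean of all 5 genes lay between those of Sham_Saline and SNA_Saline, and the LAM mean lay below that of Sham_Saline. The 5 genes were picked for likeness to Fst over these same samples, so a shared order largely follows from the choice.

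**Figure D5:**
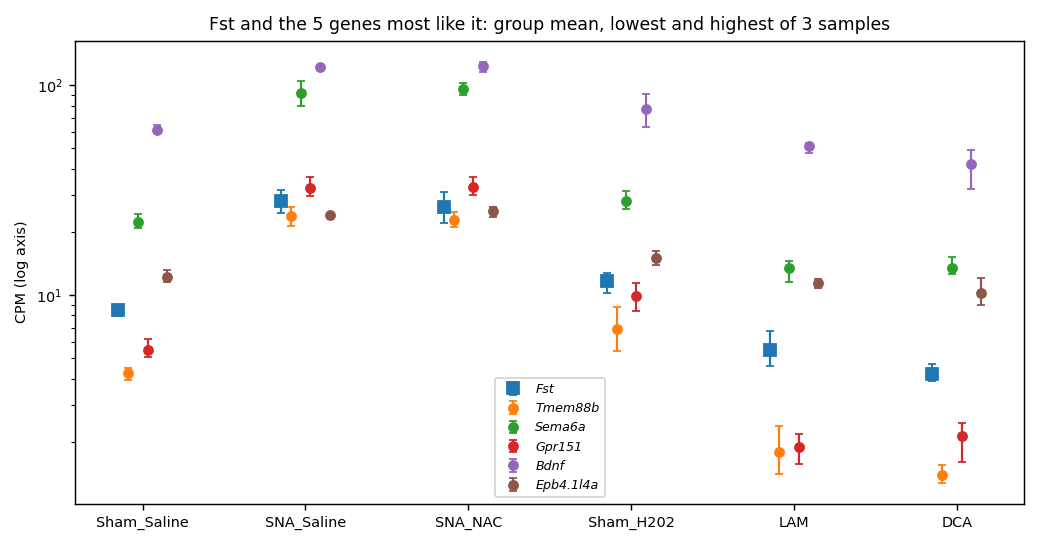
Group mean CPM (log axis) of Fst (squares) and of the 5 genes most like it, with bars from the lowest to the highest of 3 samples. In all 6 genes both nerve injury groups are highest, as for Fst with means of 28.1 and 26.2 CPM.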

How the data were processed

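Ganglia of 18 samples in 6 groups of 3 were sequenced as single-end reads from a stranded kit. Use of strand in counting is not given in the sources used here. The submitters' processing notes name mm10, TopHat2 2.0.12, Bowtie2 2.2.3, SAMtools 0.1.19, HTSeq 0.6.0, edgeR 3.8.6 and limma 3.22.7. The deposited counts are whole reads per gene for 15730 genes, whose lowest mean count is 10.06. For levels between genes, FPKM values of 45904 features, deposited by the authors, were used. The counts were tested with edgeR 4.0.16 (R 4.3.3): TMM scaling, 1 quasi-likelihood fit over all 6 groups with no block, 12 residual degrees of freedom, Benjamini-Hochberg adjustment over 15730 genes and a threshold of 0.05. Standard errors were derived from each log2 fold change and its F statistic, and intervals are 95%. The common biological coefficient of variation was 17.37%. Log2 CPM used a prior count of 2.

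The members and lists were chosen with earlier results of these data known, and 1 gene of the wider list is not reported here and not counted in it. Named genes are the members, up to 15 list genes called in any comparison, and the 5 genes most correlated with Fst among those with a mean count of at least 50. Further fits used DESeq2 1.42.0, limma 3.58.1 on log2(FPKM + 1) and log2(FPKM + 0.1), a count minimum of 10, only the groups compared, and GC and length offsets (natural splines with 5 degrees of freedom, 15648 genes with a value). Each sample was also left out in turn.

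Replicate numbers equal the sequencing lane per the labels, so they mark a shared lane, and a fit with the replicate as a block was run. Whether same-numbered samples deviated together varied with the comparison: the correlation of their deviations from group means ran from -0.647 to 0.0952 for SNA_Saline and Sham_Saline, -0.535 to -0.155 for SNA_NAC and Sham_Saline, -0.141 to 0.423 for SNA_NAC and SNA_Saline, 0.0308 to 0.555 for Sham_H202 and Sham_Saline, -0.226 to 0.232 for DCA and LAM, and 0.244 to 0.422 for Sham_Saline and LAM, the 1 comparison in which every pair was above 0.1.

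Each sample is a pool of 2 mice, so p-values measure the spread between pools. Reads carry no molecular identifiers. An exact permutation test of 3 against 3 samples cannot go below 0.1, so model tests were used.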

Additional observations from a re-analysis of the deposited data

Results flagged for a closer look

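In 4 genes the change after sciatic nerve injury differed from that after dorsal column injury by a test of the difference itself (edgeR, adjusted over all genes). They were 4 of the 77 listed family genes in the count table (5.19%), beside 1.61% of all genes. Among the 67 that are not members, 2 were called (2.99%). On the log2 scale the difference was 2.08 for Fst (adjusted p 0.000283), 0.80 for Acvr1 (adjusted p 0.0222), 0.97 for Smad1 (adjusted p 0.00147) and 0.74 for Klf10 (adjusted p 0.043). In all 4 the change was more positive after sciatic injury. Of the 28 alternatives, 6 lost the Acvr1 call and 17 the Klf10 call. Operation, saline treatment and site of injury differ together between these pairs of groups and cannot be told apart.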

How the results depend on the processing

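Of the members, Fst kept its calls after sciatic injury, with NAC and in the difference between injuries in all 28 alternatives. The replicate block changed no call of a member, and beyond the list calls named above it ended that of Klf10 in SNA_NAC (0.46, adjusted p 0.0671). That Klf10 call was lost in 18 of the 28 alternatives. Under the replicate block Fst was at 1.71 (adjusted p 6.74e-05) and Acvr1 at 0.78 (adjusted p 0.00131) in SNA_Saline. With only the groups compared in the fit, the members called were 1 in SNA_Saline against Sham_Saline (2 with all samples), 1 in SNA_NAC against Sham_Saline (4) and 1 in the difference between injuries (2), and limma on log2(FPKM + 1) called 2 in SNA_NAC. Leaving out 1 sample gave 2 to 5, 2 to 8 and 1 to 5 members, each highest without Sham_Saline replicate 1, where 16.2%, 37.3% and 29.2% of all genes were called. Between Sham_Saline and LAM, 1 was called by DESeq2, with GC and length offsets, and with these and the block, and 0 to 4 on leaving out 1 sample, the 4 without Sham_Saline replicate 1, where 31.8% of all genes were called. Bmpr2 in SNA_NAC against Sham_Saline (0.01) turned to -0.00055 with DESeq2, -0.0041 with only the groups compared, -0.013 with at least 10 counts and -0.068 with GC and length offsets, and on leaving out single samples it ran from -0.46 to 1.87. Between Sham_Saline and LAM, Bmpr1a (-0.21) turned to 0.0817 and Tgfbr1 (-0.25) to 0.0452 with GC and length offsets, and to 0.0819 and 0.0403 with the block added. Genes called in the whole table after sciatic injury were 430, with 863 by DESeq2, 65 with only the groups compared and 1169 with GC and length offsets. With NAC these counts were 522, 1222, 68 and 1204, and for the difference between injuries 254, 1638, 151 and 826, with 118 under the replicate block. Between Sham_Saline and LAM they were 11, 1083, 1 and 25, with 6 under the replicate block. On leaving out 1 sample these 4 counts ran from 174 to 2548, 215 to 5861, 55 to 4600 and 4 to 5009, the high ends without Sham_Saline replicate 1 and the low ends without SNA_Saline replicate 1, Sham_Saline replicate 2, SNA_Saline replicate 1 and, for the last, Sham_Saline replicate 3 or LAM replicate 3. The cause was not tested. Low counts limit Tgfb1 (16 to 111 reads) and Smad7 (18 to 121) among the members. In the wider list they limit the calls of Mstn (5 to 79) and Acvr1c (3 to 43).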
